A study of Mus musculus with 12 samples.

Results

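The glutathione S-transferases are described here by 10 mouse genes, chosen by name from the 29428 genes of the expression table. The choice was made with earlier results of these data known. The genes are Gsta4 of the alpha class, Gstm1, Gstm2, Gstm4 and Gstm5 of the mu class, Gstp1 of the pi class, Gstt1 and Gstt3 of the theta class, Gsto1 of the omega class, and the membrane-bound Mgst1. RNA-seq was performed on STHdhQ7/Q7 and STHdhQ111/Q111 cells, 2 immortalised lines of mouse striatal origin that carry huntingtin with 7 or 111 glutamines on both alleles. Cells were left untreated (Q7-C and Q111-C) or were treated for 24 h (Q7-T and Q111-T) with IFNγ at 100 ng/mL and LPS at 5 μg/mL, with 3 libraries in each of the 4 groups. Each genotype is a single cell line, so the polyglutamine length and any other difference between the lines cannot be told apart. The labels number the libraries 1 to 3 within a group, and the study calls them biological replicates without saying how the cultures were separated, so p-values measure the spread between libraries of 1 line.

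Cytosolic glutathione S-transferases join reduced glutathione to electrophiles, among them lipid peroxidation products such as 4-hydroxynonenal, and the conjugates are then pumped out of the cell. Several of these genes are classical targets of NRF2 and of the aryl hydrocarbon receptor, and MGST1 acts in membranes as a glutathione transferase and peroxidase. In the brain the family is best known from glia and for the protection of neurons from oxidative damage.

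Mgst1 was called higher in every comparison of the lines and of treatment: it rose 5.57-fold after IFNγ/LPS in the Q7 line and 5.14-fold in the Q111 line, and it stood 3.70-fold above Q7-C in Q111-C. Gsta4 was 8.52-fold lower in Q111-C than in Q7-C, rose 3.93-fold with treatment in the Q111 line, and had a log2 fold change of -0.01 (SE 0.34) in the Q7 line. Gstt3 exceeded its Q7-C level 4.14-fold in Q111-C and passed the test for treatment in neither line. Gstt1, at a low level, rose 3.11-fold in the Q111 line, a call that was lost when some single libraries were left out. Gstp1, Gstm1 and Gsto1, all abundant, stayed under a 2-fold difference in every comparison.

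Of the 10 genes, 9 reached at least 0.5 TPM, a transcript abundance scaled for transcript length and library size, in at least 3 libraries and were tested, among 16127 genes tested in all. Gstm4 did not: it was listed at 0 to 0.403 TPM, with at most 27 estimated counts in a library, and at 0 in all 3 Q111-C libraries. Fold changes are from edgeR's quasi-likelihood test on the estimated counts, and a gene was called where the Benjamini-Hochberg adjusted p was under 0.05 and the change was at least 2-fold. Library totals of estimated counts ranged from 57505990 to 96417834. In bulk RNA, fewer cells expressing a gene and less RNA per cell cannot be told apart.

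Before the results, 3 libraries have to be named. Among the 3246 tested genes whose longest GENCODE transcript is at most 1200 nucleotides, the median gene lay above its group mean by 0.26 (log2) in Q7-C replicate 1, by 0.43 in Q7-T replicate 2 and by 0.12 in Q111-T replicate 2, while the other 9 libraries lay between -0.25 and 0.04. The 4835 genes with transcripts of at least 4000 nucleotides moved the other way in these libraries, at -0.24, -0.21 and -0.17. Q7-T replicate 2 was also the only library whose nearest neighbour, by distance over all tested genes, was in another group (Q7-C replicate 1). Of the 9 tested glutathione S-transferase genes, 7 have a longest transcript within that limit, down to 821 nucleotides for Gstp1, and Gstm1 (1289) and Gstt3 (1985) are above it. For 8 of the 9 tested genes the deviation from the group mean followed that of the short genes over the 12 libraries, with Pearson r between 0.896 (Gstt3) and 0.994 (Gstp1), while Mgst1 had r = 0.187. These correlations describe libraries that share depth and preparation, and the part of transcript length in the results was not tested. The comparisons below are therefore given with all 12 libraries and, where a call or the passing of the adjusted threshold differs, without these 3 libraries, which leaves 2 libraries in Q7-C, Q7-T and Q111-T.

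**Figure D1:**
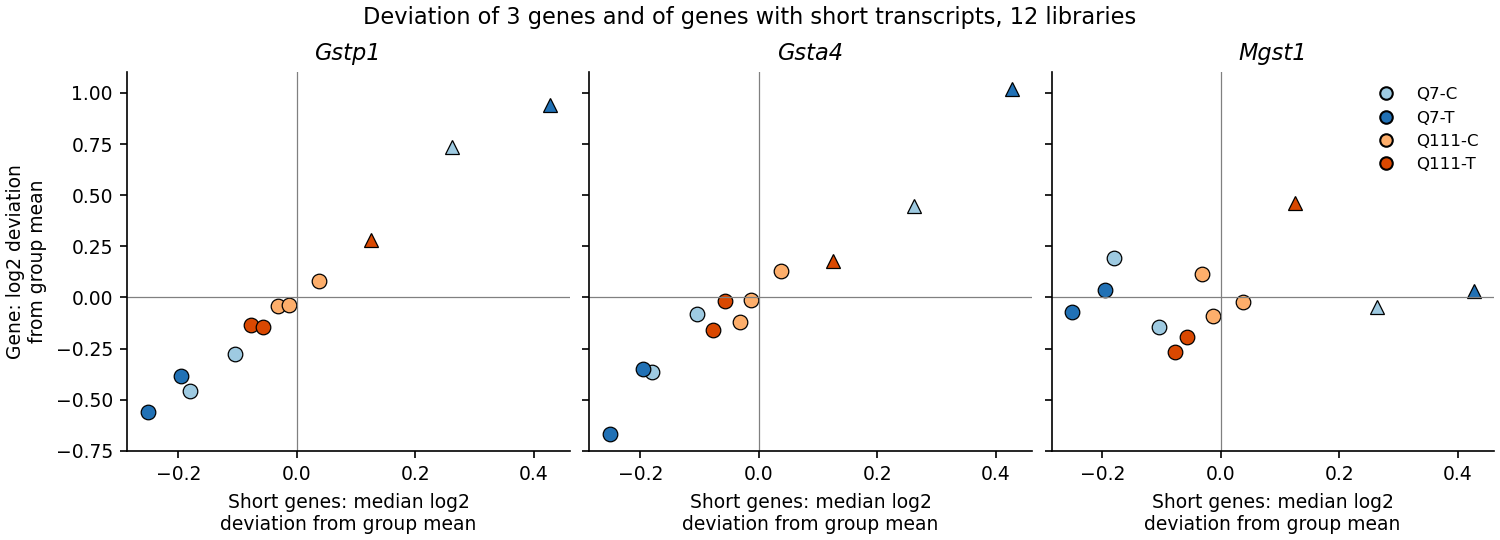
Deviation of Gstp1, Gsta4 and Mgst1 from their group means (vertical axis, log2) against the median deviation of the 3246 genes with short transcripts (horizontal axis, log2), 1 point per library and coloured by group, with triangles for Q7-C replicate 1, Q7-T replicate 2 and Q111-T replicate 2. Gstp1 (r = 0.994) and Gsta4 (r = 0.978) follow the short genes and Mgst1 (r = 0.187) does not.

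The labels call the lines neuronal, and the markers of that identity were sparse. Of 7 neuron markers 4 were tested, and they summed to between 24.7 and 104 TPM, of which Tubb3 made up 2.56 to 83.6 TPM. Of 7 medium spiny neuron markers 2 were tested, with sums of 0.173 to 6.80 TPM. Tubb3 was called lower in the Q111 line under either condition and higher with treatment in both lines. Of the other neuron markers, Map2 was called lower with treatment in the Q7 line and higher in Q111-T against Q7-T, and Eno2 higher with treatment in the Q111 line. The difference of Map2 between the treated lines was not called without the 3 libraries or with offsets for transcript length. Penk, a medium spiny neuron marker, was called higher for the untreated Q111 line, and without the 3 libraries also for the treated Q111 line. Astrocyte markers, 2 of 6 tested, summed to between 1.05 and 1.98 TPM in Q7-C, 1.33 and 1.85 in Q7-T, 9.01 and 11.1 in Q111-C and 4.16 and 5.24 in Q111-T. The glutamate transporter Slc1a3, which made up most of that sum in the Q111 line, was called higher in the Q111 line under either condition and lower with treatment in it. Aldh1l1, the other astrocyte marker tested, went the opposite way, called lower in untreated Q111 cells and higher with treatment in that line, at 0 to 0.115 TPM in Q111-C and 1.05 to 1.61 TPM in Q111-T. Mesenchymal markers summed to between 1502 and 4838 TPM, lowest in Q111-T, with Vim the highest in every library. Acta2, smooth-muscle actin, was next in the Q7 line (1491 to 1792 TPM) and was between 24.6 and 56.0 TPM in the Q111 line, whereas the collagens Col1a1, Col1a2 and Col3a1 were called higher in the Q111 line under either condition, and lower with treatment in both lines. With offsets for transcript length Col1a2 alone of the 3 was called between the treated lines. The leukocyte marker Ptprc was at most 0.00642 TPM in a library. Cd68, a lysosomal protein of macrophages that other cells also make, was between 5.80 and 8.24 TPM in Q7-C and between 40.3 and 57.5 TPM in Q111-T. The part of these markers in the results below was not tested.

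Promoter sequence from RefSeq (build GRCm38.p6) matched 9 of the 10 genes, all but Gsta4, with 13 start sites, and the 250 bases before each start were searched on both strands for 3 motifs. A gene was counted with a match before any of its starts, whereas the percentages are shares of single promoters. TGACNNNGC, the core of the antioxidant response element bound by NRF2, was found for 2 genes (Mgst1 and Gstm5) and in 10.2% of all 32841 promoters. GCGTG, the core of the xenobiotic response element, was found for 3 genes (Gstm1, Gstm5 and Gstp1) and in 28.2% of all promoters. The core of the interferon-stimulated response element, TTTC and TTTC with any 2 bases between them, was found for Gstt1 alone and in 2.98% of all promoters. A match describes the letters and is not evidence of binding, and no match says only that these letters are absent from the window. In each sequence printed here the capitals are the only match to the 3 motifs. The first shown is the stretch of 30 bases around the match of Mgst1, the gene that responded in both lines, at chr6:138140461-138140490 on the plus strand, with the reverse complement of TGACNNNGC in capitals. It lies 56 bases before a RefSeq start, and GENCODE places it in the first exon of a longer Mgst1 transcript.
Mgst1: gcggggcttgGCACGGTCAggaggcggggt

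The theta-class genes Gstt1 and Gstt3 are neighbours on chromosome 10, and the windows before their starts are shown because Gstt1 responded to treatment in the Q111 line and Gstt3 differed between the lines. The window of Gstt1 is chr10:75797732-75797981 on the minus strand, inside an intron of its longest transcript, with the match to the interferon-stimulated core in capitals 185 bases before the start. The window of Gstt3 is chr10:75781415-75781664 on the minus strand, outside annotated exons, and holds no match to the 3 motifs.
Gstt1: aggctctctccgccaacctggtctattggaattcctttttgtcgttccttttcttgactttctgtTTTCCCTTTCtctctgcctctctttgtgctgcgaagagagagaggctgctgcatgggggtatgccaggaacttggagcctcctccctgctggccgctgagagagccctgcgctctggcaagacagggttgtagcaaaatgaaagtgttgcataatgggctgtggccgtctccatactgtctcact
Gstt3: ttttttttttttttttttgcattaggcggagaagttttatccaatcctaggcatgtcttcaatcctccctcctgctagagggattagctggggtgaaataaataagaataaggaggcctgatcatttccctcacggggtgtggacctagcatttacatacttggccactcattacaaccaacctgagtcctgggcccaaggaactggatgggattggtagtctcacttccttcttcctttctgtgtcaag

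TPM is scaled for transcript length, so levels can be compared between genes, and on this scale Gstp1 was the most abundant in every group, with mean levels in the Q7 line of 371 ± 95.7 TPM untreated and 359 ± 84.7 TPM treated, and in the Q111 line of 409 ± 9.21 TPM untreated and 379.6 ± 25.2 TPM treated (SD, n = 3). Gsta4 was next in Q7-C (256 ± 26.0 TPM). In Q111-C Gsta4 (38.3 ± 2.27 TPM) stood below Gstm1 (165 ± 5.08 TPM), Gsto1 (128 ± 2.26 TPM) and Gstm5 (74.6 ± 5.21 TPM), and no neighbours in the order overlapped in that group. In Q7-C the libraries of Gsto1 and Gstm1 overlapped, as did those of Gstm2 and Gstm5, and all other neighbours in the order were apart. In Q7-T the overlapping neighbours were Gsta4 and Gsto1, Gstm5 and Gstm2, and Gstt3 and Gstt1. In Q111-T they were Gsto1 and Gsta4, and Gstm1 and Mgst1 with Mgst1 above Gstm5. The 10 genes summed to 1114 ± 157 TPM untreated and 961 ± 206 TPM treated in the Q7 line, and to 866 ± 10.6 TPM untreated and 951 ± 88.4 TPM treated in the Q111 line (SD, n = 3). The share of Gsta4 in that sum was between 21.5% and 24.7% in Q7-C, between 4.16% and 4.65% in Q111-C and between 13.4% and 16.0% in Q111-T. The share of Mgst1 was between 0.225% and 0.523% in Q7-C and between 8.32% and 9.71% in Q111-T.

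**Figure D2:**
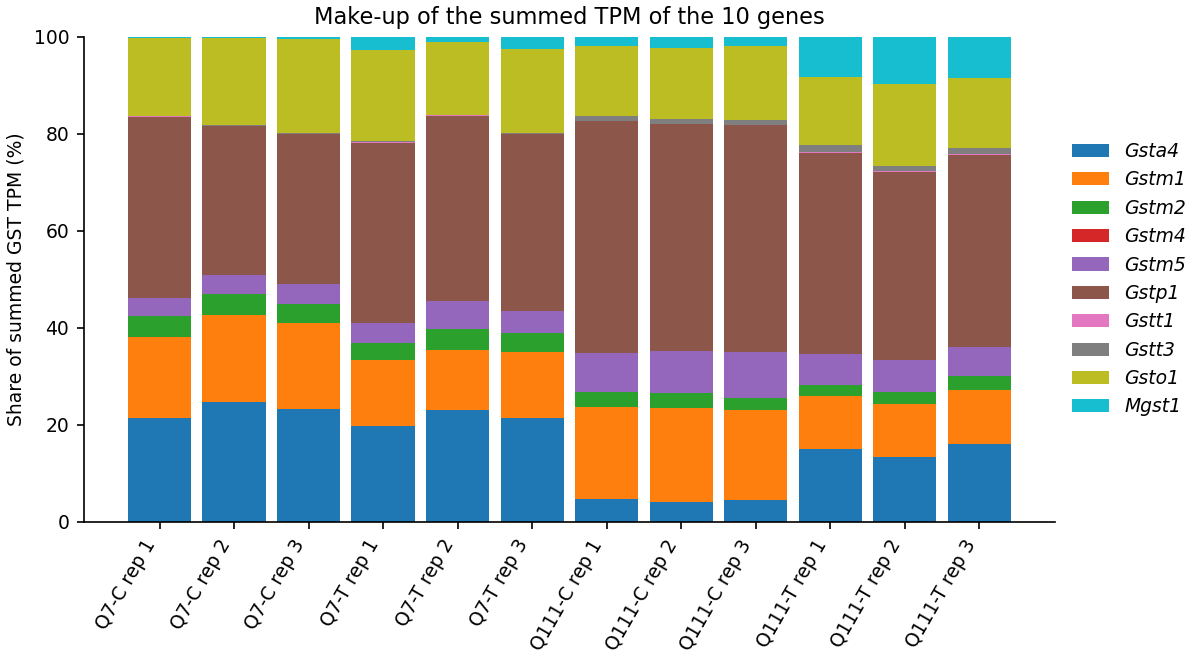
Share of each gene (stacked, %) in the summed TPM of the 10 genes, 1 bar per library. Gstp1 makes up the largest share in every library, Gsta4 is narrow in the 3 Q111-C bars (4.16% to 4.65%), and Mgst1 is widest in the 3 Q111-T bars (8.32% to 9.71%).

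Gsta4 (chromosome 9, 78182774 to 78209349, plus strand, GRCm38) encodes the transferase with the highest preference of the family for 4-hydroxynonenal. It was at 276, 266 and 227 TPM in Q7-C, at 162, 277 and 186 TPM in Q7-T, at 40.7, 36.2 and 38.1 TPM in Q111-C, and at 134, 141 and 146 TPM in Q111-T (replicates 1, 2 and 3). The Q111-C libraries lay below all others, and the Q7-C and Q7-T libraries overlapped. Gsta4 was lower in Q111-C than in Q7-C (log2 fold change -3.09, SE 0.369, edgeR adjusted p = 9.64e-05). After treatment the gap was smaller, at -1.10 (SE 0.345, edgeR adjusted p = 0.0258), and without the 3 libraries it was -0.54 (edgeR adjusted p = 0.00621), under 2-fold. The call of Gsta4 between treated lines was also lost without Q7-T replicate 2, Q111-T replicate 1 or Q111-T replicate 3 alone, at -0.49, -1.01 and -1.07, with an edgeR adjusted p of at most 0.0902. In the Q111 line Gsta4 rose with IFNγ/LPS (log2 fold change 1.97, SE 0.354, edgeR adjusted p = 0.00216). In the Q7 line the log2 fold change was -0.01 (edgeR adjusted p = 0.995), and -0.41 (edgeR adjusted p = 0.0692) without the 3 libraries. The difference of the responses was itself tested as the interaction of line and treatment, and Gsta4 was the only one of the 9 genes called in it (1.99, SE 0.487, edgeR adjusted p = 0.0357), against 4.71% of all genes tested (3.52% higher). The interaction of Gsta4 was 2.31 (edgeR adjusted p = 4.94e-05) without the 3 libraries. It was lost when any 1 library was left out other than Q7-C replicate 3, Q7-T replicate 1 or Q7-T replicate 2, with values of 1.75 to 2.05 and an edgeR adjusted p of at most 0.0995, and it was 1.72 to 2.59 in the other 3 fits. The genes most like Gsta4 were Pltp, Crip2 and Ddit3 (r = 0.970, 0.968 and 0.965).

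The alpha-class neighbours of Gsta4 on chromosome 9, Gsta1 and Gsta2, are not among the 10 genes and were examined beside it, while Gsta3, also of the alpha class, was at most 0.199 TPM and was not tested. Gsta1 was at 41.6, 40.7 and 32.0 TPM in Q7-C, at 34.96, 35.1 and 33.6 TPM in Q7-T, at 4.61, 3.57 and 5.25 TPM in Q111-C, and at 46.8, 45.9 and 45.4 TPM in Q111-T. The Q111-C libraries were the lowest, as for Gsta4, whereas the Q111-T libraries of Gsta1 were the highest. Gsta1 was 10.8-fold lower in Q111-C than in Q7-C (log2 fold change -3.43, SE 0.299, edgeR adjusted p = 9.22e-06) and rose 11-fold in the Q111 line (3.46, SE 0.299, edgeR adjusted p = 9.49e-06). Its interaction was 3.39 (SE 0.394, edgeR adjusted p = 0.000702), and 3.38 (edgeR adjusted p = 5.75e-05) without the 3 libraries. Between Q111-T and Q7-T the log2 fold change of Gsta1 was -0.04 (edgeR adjusted p = 0.921), and 0.41 (edgeR adjusted p = 0.041) with offsets for transcript length, under 2-fold. Gsta2 was at most 3.16 TPM in any library, and the interaction was not called for it (edgeR adjusted p = 0.181).

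Mgst1 (chromosome 6, 138140316 to 138156755, plus strand) was at 2.89, 3.79 and 5.12 TPM in Q7-C, at 22.8, 12.9 and 22.7 TPM in Q7-T, at 17.0, 19.9 and 16.8 TPM in Q111-C, and at 73.8, 102 and 77.0 TPM in Q111-T. All Q7-C libraries were below and all Q111-T libraries above every other library, while Q7-T and Q111-C overlapped. Mgst1 rose with treatment in the Q7 line (log2 fold change 2.48, SE 0.211, edgeR adjusted p = 1.53e-05) and in the Q111 line (2.36, SE 0.208, edgeR adjusted p = 1.12e-05). The line difference was 1.89 (SE 0.207, edgeR adjusted p = 4.98e-05) in untreated cells and 1.77 (SE 0.204, edgeR adjusted p = 5.64e-05) in treated cells. The interaction was -0.12 (SE 0.281, edgeR adjusted p = 0.867), so a difference between the responses was not detected. The genes whose log2(TPM + 0.5) over the 12 libraries was most like that of Mgst1 were Il15ra (r = 0.988), Isg15 (r = 0.985) and Irf9 (r = 0.985), which are known as interferon-induced genes. The correlations describe 12 libraries in 4 groups and carry no test.

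**Figure D3:**
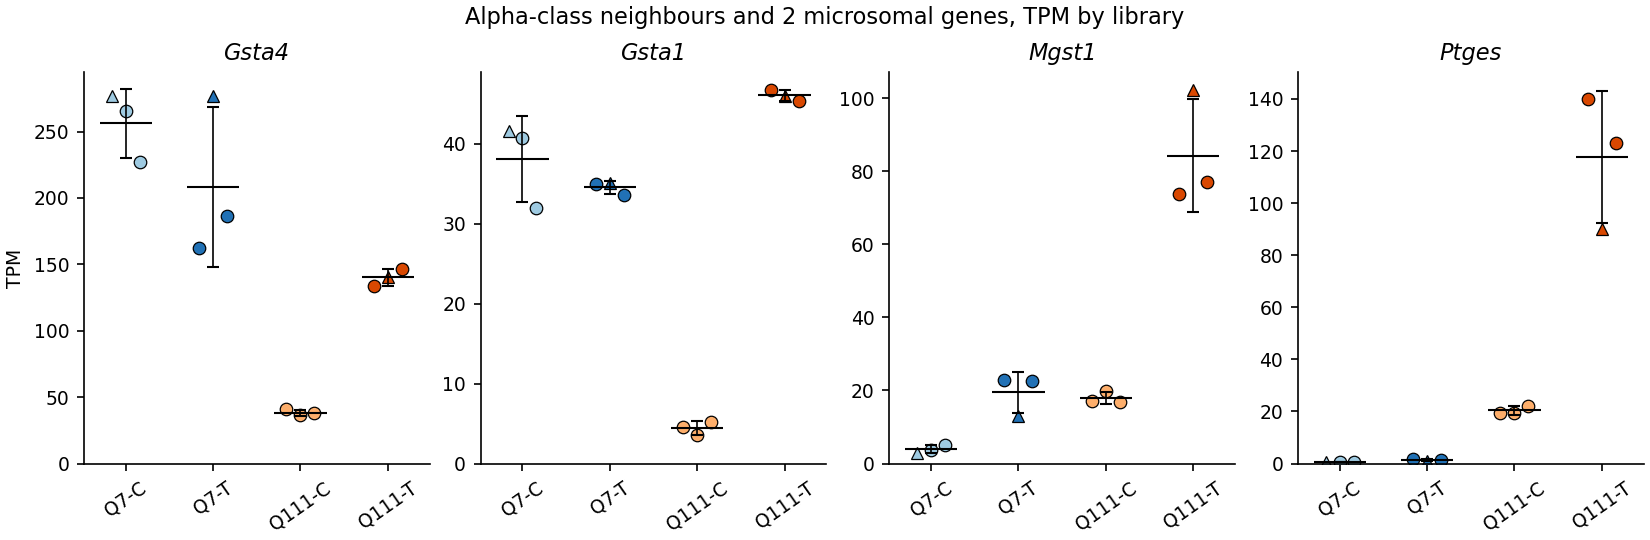
TPM of Gsta4, Gsta1, Mgst1 and Ptges by group (linear axis from 0), with 1 point per library, the mean as a line, bars of 1 SD, and triangles for the 3 libraries named above. Gsta4 and Gsta1 are lowest in Q111-C, whereas Mgst1 and Ptges are lowest in Q7-C and highest in Q111-T.

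The theta class acts on small halogenated compounds and organic hydroperoxides. Gstt3 (chromosome 10, 75774115 to 75781414, minus strand) was at 1.92, 1.29 and 1.52 TPM in Q7-C, at 1.71, 1.502 and 1.59 TPM in Q7-T, at 8.39, 9.05 and 8.004 TPM in Q111-C, and at 12.8, 10.9 and 11.2 TPM in Q111-T. The 6 libraries of the Q111 line were all above the 6 libraries of the Q7 line. Gstt3 was higher in the Q111 line, untreated (log2 fold change 2.05, SE 0.272, edgeR adjusted p = 0.00021) and treated (2.41, SE 0.276, edgeR adjusted p = 5.3e-05). With treatment its log2 fold change in the Q111 line was 0.56 (edgeR adjusted p = 0.183), which without the 3 libraries was 0.53 (edgeR adjusted p = 0.00736), still under 2-fold. Of the 50-base stretches of Gstt3, 26.0% are shared with Gm20441, an overlapping gene on the same strand, so the counts between these genes are uncertain. Gm20441 itself was at most 0.331 TPM in a library. The genes most like Gstt3 were Oasl1, Kcnk5 and Selp (r = 0.994, 0.994 and 0.994).

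Gstt1 (chromosome 10, 75783813 to 75798584, minus strand) was low in all libraries, at 0.827, 0.762 and 0.432 TPM in Q7-C, at 1.22, 1.61 and 0.971 TPM in Q7-T, at 1.17, 0.704 and 0.987 TPM in Q111-C, and at 2.37, 3.27 and 2.59 TPM in Q111-T. All Q111-T libraries were above all others, and the treated Q7 libraries were above the untreated ones. These levels rest on 29 to 166 estimated counts per library. Gstt1 rose in the Q111 line (log2 fold change 1.64, SE 0.484, edgeR adjusted p = 0.0357). The call was lost without Q7-C replicate 2 or any 1 of the Q111 libraries, with values of 1.36 to 1.80 and an edgeR adjusted p of at most 0.143, and with no filter on low values (1.62, edgeR adjusted p = 0.0683). Under limma on log2(TPM + 1) it was 0.94 (limma adjusted p = 0.00246), past the adjusted threshold and under 2-fold. Between Q111-T and Q7-T Gstt1 had 0.62 (edgeR adjusted p = 0.317), but with offsets for transcript length it was called higher (1.12, edgeR adjusted p = 0.0161). That difference also passed the adjusted threshold under limma on log2(TPM + 0.5) (0.88, limma adjusted p = 0.00782) and at both other pseudocounts, and over all 26 alternatives the adjusted p ranged from 0.00643 to 0.591. In the Q7 line the log2 fold change was 1.16 (SE 0.483, edgeR adjusted p = 0.269), and the interaction was 0.48 (edgeR adjusted p = 0.75), so the responses of the lines were not shown to differ. The genes most like Gstt1 were Tmbim4, Fam162a and Armc2 (r = 0.968, 0.957 and 0.955).

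The mu class is encoded by a cluster on chromosome 3 and acts on a wide range of aromatic and epoxide substrates. Gstm1 (chromosome 3, 108012255 to 108017973, minus strand) was at 214, 192 and 174 TPM in Q7-C, at 110.3, 147 and 119 TPM in Q7-T, at 167, 168 and 159 TPM in Q111-C, and at 95.6, 115 and 102 TPM in Q111-T. In both lines every treated library was below every untreated library. The log2 fold change with treatment was -0.38 (SE 0.3, edgeR adjusted p = 0.646) in the Q7 line and -0.54 (SE 0.301, edgeR adjusted p = 0.267) in the Q111 line, neither of which passed. With the 3 libraries left out, Gstm1 passed the adjusted threshold in both lines at under 2-fold, with -0.59 (edgeR adjusted p = 0.00314) and -0.71 (edgeR adjusted p = 0.000208). With no library left out it also passed in both lines with offsets for transcript length and under limma on quantile-normalised values. Under limma on log2(TPM + 1) it passed in both lines too. At the other pseudocounts, and with only the 2 groups compared, it passed in the Q111 line alone. Between the lines Gstm1 had -0.59 (edgeR adjusted p = 0.202) untreated and -0.75 (edgeR adjusted p = 0.0694) treated, and without the 3 libraries these were -0.33 (edgeR adjusted p = 0.0137) and -0.44 (edgeR adjusted p = 0.00388), smaller and past the adjusted threshold. Of its 50-base stretches 23.1% are shared with other genes, most of them with the pseudogene Gstm2-ps1, which was at most 5.86 TPM. The genes most like Gstm1 were Gamt, Dbp and Gm3571 (r = 0.943, 0.941 and 0.940). The window before the outer RefSeq start of Gstm1, chr3:108017974-108018223 on the minus strand and free of annotated exons, is shown as that of the abundant gene with lower TPM in all treated libraries, with GCGTG in capitals 76 bases before the start.
Gstm1: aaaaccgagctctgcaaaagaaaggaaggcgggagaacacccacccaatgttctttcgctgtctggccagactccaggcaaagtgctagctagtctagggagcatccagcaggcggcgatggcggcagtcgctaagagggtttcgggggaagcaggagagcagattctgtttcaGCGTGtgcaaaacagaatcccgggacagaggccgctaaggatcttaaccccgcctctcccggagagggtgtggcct

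Gstm2 (chromosome 3, 107981702 to 107986453, minus strand) was at 54.1, 46.2 and 39.1 TPM in Q7-C, at 28.2, 51.9 and 33.6 TPM in Q7-T, at 27.3, 26.0 and 21.7 TPM in Q111-C, and at 20.8, 25.8 and 25.2 TPM in Q111-T. Libraries of the Q111 line were below those of the Q7 line under either condition. Gstm2 was called lower in Q111-C than in Q7-C (log2 fold change -1.26, SE 0.39, edgeR adjusted p = 0.0374) and in Q111-T than in Q7-T (-1.20, SE 0.39, edgeR adjusted p = 0.031). Without the 3 libraries the differences were -0.94 (edgeR adjusted p = 0.000853) and -0.66 (edgeR adjusted p = 0.00967), past the adjusted threshold and under 2-fold. The call of Gstm2 in untreated cells was lost when any 1 of 8 libraries was left out (all but Q7-C replicate 3 and the Q7-T libraries), and in treated cells without Q7-T replicate 2, Q111-T replicate 1 or Q111-T replicate 3, with edgeR adjusted p-values of at most 0.14 and 0.133. With 1 library left out at a time the untreated difference of Gstm2 lay between -1.42 and -0.94, and the treated one between -1.49 and -0.54, smallest without Q7-T replicate 2. With treatment Gstm2 had log2 fold changes of -0.01 in the Q7 line and 0.05 in the Q111 line. Its sequence shares 9.36% of 50-base stretches with other genes, and the genes most like it were Ftl1, Mfsd13a and 1700037H04Rik (r = 0.957, 0.956 and 0.953).

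Gstm5 (chromosome 3, 107895821 to 107898686, plus strand), a mu-class gene best known from brain and testis, was at 49.6, 44.0 and 39.7 TPM in Q7-C, at 33.4, 68.1 and 39.3 TPM in Q7-T, at 69.3, 74.8 and 79.7 TPM in Q111-C, and at 56.0, 68.2 and 54.6 TPM in Q111-T. Q7-T replicate 2 stood apart from the other Q7-T libraries, at the level of the Q111 line. In the edgeR fit of all 12 libraries Gstm5 passed the threshold in no comparison, with a log2 fold change of 0.39 (edgeR adjusted p = 0.56) in Q111-C against Q7-C. That difference was 0.60 with offsets for transcript length (edgeR adjusted p = 0.0325) and 0.66 when the 3 libraries were left out (edgeR adjusted p = 0.00127). In Q111-T against Q7-T the direction of Gstm5 depended on the method and on the libraries, with -0.20 for all 12, 0.36 (edgeR adjusted p = 0.144) for all 12 with offsets for transcript length and 0.38 (edgeR adjusted p = 0.0287) without the 3. With treatment in the Q111 line Gstm5 had -0.20 (edgeR adjusted p = 0.816), and -0.40 (edgeR adjusted p = 0.019) without the 3 libraries. The gene overlaps 4933431E20Rik on the opposite strand, and the genes most like it were Dad1, Dynlt1b and Ift22 (r = 0.978, 0.977 and 0.972).

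Gstp1 (chromosome 19, 4035407 to 4037985, minus strand), the pi-class enzyme that also binds and restrains JNK, was at 480, 329 and 303 TPM in Q7-C, at 304, 456 and 316 TPM in Q7-T, at 419, 407 and 400.4 TPM in Q111-C, and at 369, 408 and 362 TPM in Q111-T. Q7-C replicate 1 and Q7-T replicate 2 were the highest of their groups, and all 4 groups overlapped. Its log2 fold changes lay between -0.43 and 0.19, with edgeR adjusted p-values from 0.378 to 0.997, and the direction of each changed with the scaling or the libraries used. Of its 50-base stretches 62.3% are shared with the near-identical Gstp2, which was listed at 14.7 to 83.6 TPM, so the split of reads between Gstp1 and Gstp2 is uncertain. The genes most like Gstp1 were Lamtor2, Micos10 and Prelid1 (r = 0.966, 0.965 and 0.961).

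Gsto1 (chromosome 19, 47854970 to 47864790, plus strand), an omega-class enzyme that reduces dehydroascorbate and removes glutathione from proteins, was at 206, 192 and 189.7 TPM in Q7-C, at 153, 179.6 and 149.7 TPM in Q7-T, at 126, 127 and 130.4 TPM in Q111-C, and at 123, 177 and 133 TPM in Q111-T. Q111-T replicate 2 lay apart from the other Q111-T libraries. Gsto1 was lower in Q111-C than in Q7-C at under 2-fold (log2 fold change -0.96, SE 0.294, edgeR adjusted p = 0.0351), and in Q111-T against Q7-T it had -0.61 (edgeR adjusted p = 0.119). They were -0.75 (edgeR adjusted p = 1.45e-05) and -0.47 (edgeR adjusted p = 0.000464) without the 3 libraries, while with 1 library left out at a time the untreated difference failed the threshold without either of Q7-C replicates 1 and 2, any Q111-C library or Q111-T replicate 3 (edgeR adjusted p at most 0.125), and without Q7-C replicate 3 Gsto1 was called lower (-1.04, edgeR adjusted p = 0.048). With treatment in the Q7 line Gsto1 had -0.05 (edgeR adjusted p = 0.965), and -0.25 (edgeR adjusted p = 0.0472) without the 3 libraries. The gene overlaps Cfap43 on the opposite strand, and the genes most like it were mt-Atp6, Gm10925 and Camk2n1 (r = 0.958, 0.951 and 0.946).

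**Figure D4:**
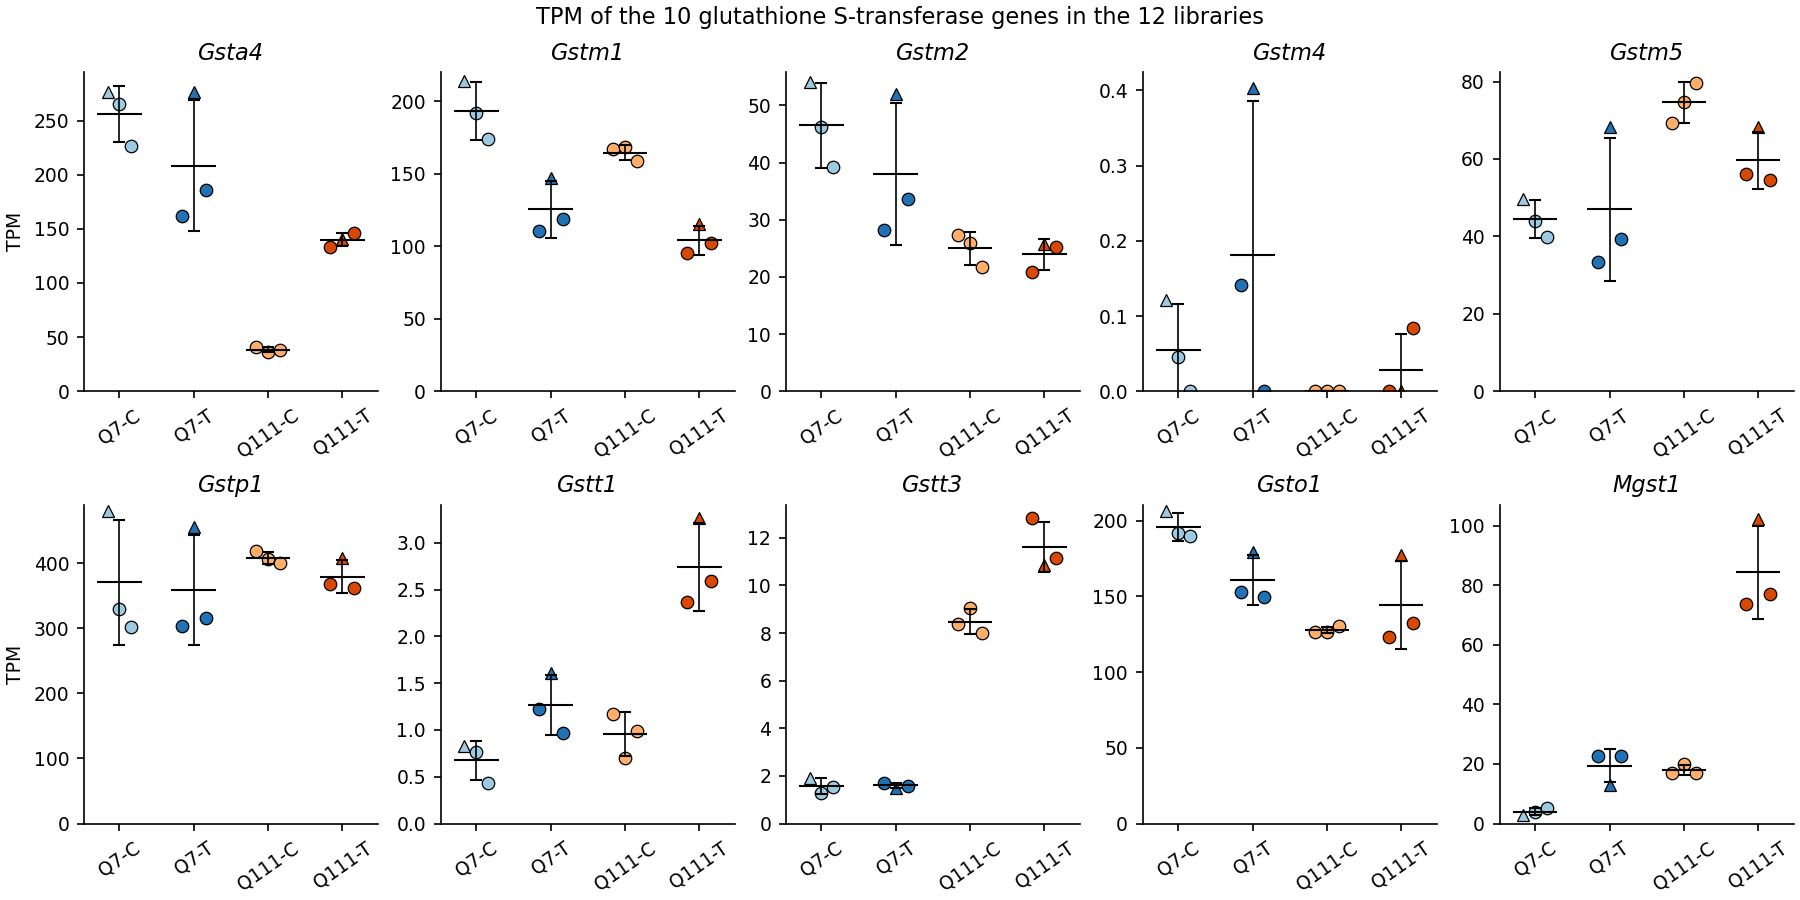
TPM of the 10 genes by group (linear axes from 0, scaled per gene), with 1 point per library, the mean as a line, bars of 1 SD, and triangles for Q7-C replicate 1, Q7-T replicate 2 and Q111-T replicate 2. Gsta4 is lowest in the 3 Q111-C libraries, Gstt3 is higher in all 6 Q111 libraries, Mgst1 is highest in the 3 Q111-T libraries, and the triangles are the top points of Gstp1, Gsto1 and Gstm1 in their groups.

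Across the family, 4 of the 9 tested genes were called in Q111-C against Q7-C, Gstt3 and Mgst1 higher and Gsta4 and Gstm2 lower, where 15.2% of all genes tested were called (7.62% higher and 7.61% lower). The same 4 genes were called in Q111-T against Q7-T, where the share over all genes was 24.5% (13.3% higher and 11.2% lower). In the Q7 line 1 of 9 was called with treatment (Mgst1), against 4.04% of all genes (2.93% higher), and in the Q111 line 3 of 9 (Mgst1, Gsta4 and Gstt1, all higher), against 11.2% (8.28% higher). When the 3 libraries were left out, the counts for the lines were 3 of 9 (Gstt3, Mgst1 and Gsta4) and 2 of 9 (Gstt3 and Mgst1), and the counts for treatment were 1 and 3 as before, with the same genes. In that fit 16.9% and 22.9% of all genes tested were called between the lines, 5.04% and 13.7% with treatment and 9.85% in the interaction. With offsets for transcript length, Gstt1, Gstt3 and Mgst1 were called in Q111-T against Q7-T, all higher, and the genes called in the other comparisons were the same as without offsets. The shares over all genes with offsets were 15.8% and 24% between the lines, 4.41% and 11.9% with treatment and 6.57% in the interaction. The median log2 fold change of the 9 genes was -0.25 in Q111-C against Q7-C, -0.43 in Q111-T against Q7-T, 0.19 in the Q7 line and 0.30 in the Q111 line, while the median over all genes tested lay between -0.03 and 0.00 in these comparisons. Without the 3 libraries the medians of the 9 genes were 0.20, 0.01, -0.12 and 0.03, and the first 3 also changed sign with all 12 libraries and offsets for transcript length (0.02, 0.08 and -0.02). On the TPM scale the median of all genes shifted, to 0.27, 0.34, -0.16 and -0.10 (limma, log2(TPM + 0.5)), so that differences between the lines in TPM stand against that shift. In TPM, 7 of the 9 tested genes had groups without overlap in Q111-C against Q7-C, where 51.4% of the genes tested did, and 5 of 9 in Q111-T against Q7-T, where 46.3% did. With treatment 4 of 9 did so in the Q7 line, against 14.4% of the genes tested, and 6 of 9 in the Q111 line, against 49.6%. The comparisons share libraries, and their values are given side by side for that reason. The genes were chosen with earlier results of these data known. Their counts beside the shares over all genes are therefore a description and no test. An exact permutation test of 3 TPM values against 3 cannot give a p below 0.1, and gave 0.1 for each pair of groups without overlap.

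**Figure D5:**
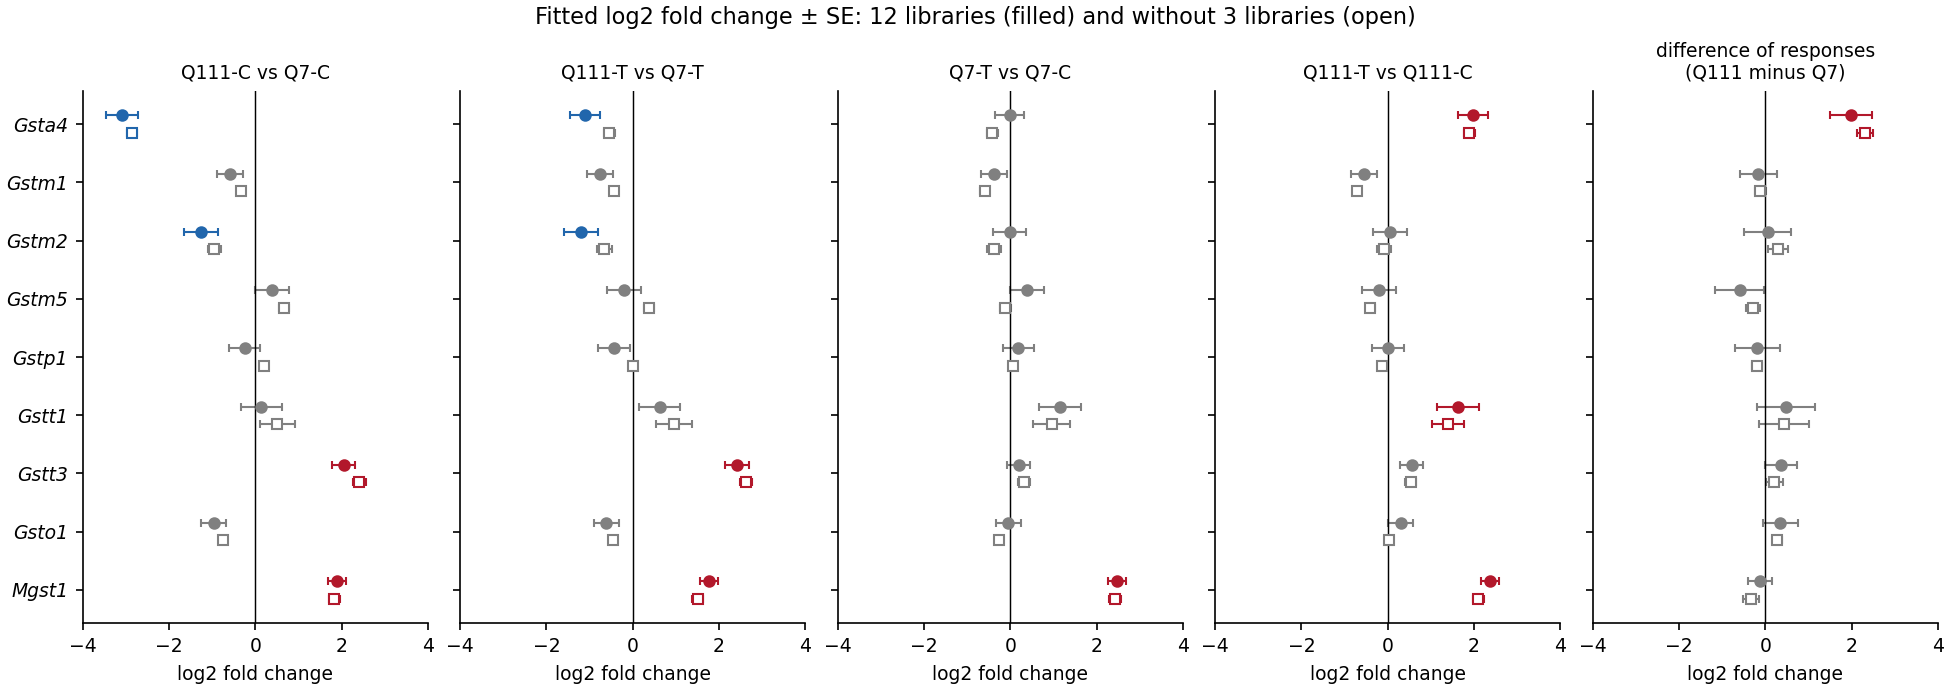
Log2 fold change ± SE (edgeR) of the 9 tested genes in the 4 comparisons and in the difference of the responses, with all 12 libraries (filled circles) and without the 3 libraries (open squares). Red marks genes called higher and blue genes called lower. Gstt3 and Mgst1 are red for both line comparisons, Mgst1 for both treatments, and Gsta4 alone for the difference of the responses (1.99 and 2.31).

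The other genes of the family were listed by class, 21 in all, and 13 of them were tested. In Q111-C against Q7-C 2 were called higher (Mgst2 and Ptges) and 3 lower (Gsta1, Gsta2 and Gstk1), beside 7.62% and 7.61% of all genes tested, with a median log2 fold change of -0.34, beside -0.02 over all genes tested. Gsto2, higher, and Gstm7, lower, were called in addition without the 3 libraries. In Q111-T against Q7-T 3 were called higher (Gsto2, Mgst2 and Ptges) and 3 lower (Gstm7, Gstk1 and Mgst3). The shares over all genes tested were 13.3% higher and 11.2% lower. In this comparison Ltc4s was also called higher without the 3 libraries, and Gstk1 was not called. In the Q111 line 4 were called higher with treatment (Gsta1, Gsta2, Gstk1 and Ptges) and 2 lower (Gstm7 and Mgst3), beside 11.2% of all genes tested, and in the Q7 line Ptges was called, beside 4.04%. Without the 3 libraries Ltc4s was also called higher in the Q111 line and Mgst3 lower in the Q7 line. The interaction was called for Gsta1 and Ptges of the 13 genes, beside 4.71% of all genes tested, and without the 3 libraries also for Ltc4s (higher), Gstm7 and Mgst3 (lower), beside 9.85%. Ptges, the microsomal relative of Mgst1 that makes prostaglandin E2, was at 0.447 to 0.645 TPM in Q7-C, at 0.903 to 1.67 in Q7-T, at 19.4 to 22.3 in Q111-C and at 90.0 to 139.96 in Q111-T, and none of these ranges overlapped. Its log2 fold change with treatment was 1.49 (SE 0.18, edgeR adjusted p = 0.000281) in the Q7 line and 2.62 (SE 0.176, edgeR adjusted p = 1.49e-06) in the Q111 line, and the interaction was called (SE 0.244, edgeR adjusted p = 0.0197). Mgst2, which makes leukotriene C4, was between 1.09 and 2.67 TPM in the 6 Q7 libraries and between 9.37 and 14.2 TPM in the 6 Q111 libraries (log2 fold change 2.28, SE 0.46, edgeR adjusted p = 0.00369, in untreated cells). Mgst3, a membrane-bound transferase and peroxidase, went opposite to Mgst1 in the Q111 line, from 53.8 to 61.7 TPM without treatment to 11.9 to 15.7 TPM with it (log2 fold change -1.995, SE 0.509, edgeR adjusted p = 0.0173). Mgst3 had -0.60 (edgeR adjusted p = 0.657) in the Q7 line, and -1.03 (edgeR adjusted p = 0.00224) without the 3 libraries. Gstk1 was at 0 in all Q111-C libraries and at most 1.55 TPM elsewhere, so its fold is not given.

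The genes that supply glutathione and export its conjugates were read as lists by role. Of 16 tested genes of glutathione synthesis and recycling, 5 were called higher with treatment in the Q111 line and none lower, beside 8.28% of all genes tested called higher: the cystine importer Slc7a11 (log2 fold change 1.72, SE 0.154, edgeR adjusted p = 1.29e-05), Cth, which makes cysteine from cystathionine (1.59), both subunits of glutamate-cysteine ligase, Gclc (1.20) and Gclm (1.90), and the γ-glutamyl cyclotransferase Ggct (2.33). In the Q7 line 2 of the 16 were called higher, beside 2.93% of all genes tested: Ggct (2.05) and the leucine aminopeptidase Lap3 (1.14). In Q111-C against Q7-C 4 of the 16 were called lower, beside 7.61% of all genes tested: Slc3a2 (-1.34), Cth (-1.65), Gclm (-1.01) and Chac1 (-1.63). When the 3 libraries were left out, Gclm was not called and Cbs was called higher. The median log2 fold change of this list in the Q111 line was 0.86, beside -0.0050 over all genes tested. Of 15 tested regulators and sentinel targets of the NRF2 and aryl hydrocarbon receptor pathways, 7 were called higher with treatment in the Q111 line. The share of all genes tested called higher was 8.28%. The 7 were Nfe2l2, the gene of NRF2 (1.06), its small Maf partners Maff (2.19) and Mafk (2.22), and the targets Nqo1 (1.03), Hmox1 (2.22), Txnrd1 (1.28) and Tiparp (1.26). Without the 3 libraries 5 of these were called (Maff, Mafk, Hmox1, Txnrd1 and Tiparp), and 6 genes of the glutathione list, Cbs in addition. In the Q7 line 1 of the 15 was called (Maff, 1.06), beside 2.93% of all genes tested called higher, and none with offsets for transcript length. In Q111-C against Q7-C Cyp1b1 (4.39) and Bach1, a repressor of NRF2 targets (1.20), were called higher, and Hmox1 (-1.05) and Cyp1a1 lower. Beside them 7.62% and 7.61% of all genes tested were called higher and lower. Of these genes, only Cyp1b1 and Cyp1a1 were called without the 3 libraries. Cyp1a1, a target of the aryl hydrocarbon receptor like Cyp1b1, was between 1.10 and 4.67 TPM in the Q7 line and listed at 0 in all 6 Q111 libraries. Of 6 tested exporters of glutathione conjugates, Abcc1 (1.19) and Abcc4 (1.42) were called higher with treatment in the Q111 line and none in the Q7 line. The shares of all genes tested called higher were 8.28% and 2.93%. Between the lines Abcc3 was called higher in Q111 cells under either condition, beside 7.62% and 13.3% of all genes tested. Abcc4 was called higher in Q111-T against Q7-T. With offsets for transcript length Abcc3 was called in neither condition. Of 11 tested glutathione-using enzymes outside the family, the glutaredoxin Glrx alone was called with treatment, in the Q7 line (2.12) and in the Q111 line (1.88). The shares of all genes tested were 4.04% and 11.2%. Gpx7 was called higher in the Q111 line under either condition, at 5.72 to 7.68 TPM against 0 to 0.370 TPM in the Q7 line. Glo1 was called lower in Q111-T against Q7-T, but not without the 3 libraries. The difference of the responses was called higher for Slc7a11 (1.33, SE 0.213, edgeR adjusted p = 0.00424), Cth (1.96), Gclm (1.49), Abcc4 (1.03), Maff (1.13), Mafk (1.86), Nqo1 (1.18) and Hmox1 (1.84), and lower for Ahr, the aryl hydrocarbon receptor, in these lists, beside 4.71% of all genes tested (3.52% higher). With the 3 libraries left out, Maff was not called and Gclc, Abcc1, Srxn1 and Tiparp were called higher in addition. With offsets for transcript length Abcc4 and Hmox1 were not called, and Gclc and Tiparp were.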

How the data were processed

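Poly(A) RNA was sequenced from both ends as stranded libraries. According to the study's methods, the authors trimmed reads with Cutadapt, checked them with FastQC, mapped them with HISAT2 to GRCm38 (Ensembl), and assembled and estimated transcripts with StringTie, gffcompare and Ballgown. The submitters' processing notes also list DESeq2 and edgeR. The authors deposited TPM values, which sum to between 688352 and 719623 per library, and estimated counts per gene, written as whole numbers without normalization and in a unit not given in the sources used here. Counts of low genes favour multiples of 4 by 1.21 to 1.56 times, so 1 read pair may stand for 4 counts. Total counts per library range from 57505990 to 96417834.

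Counts were tested with edgeR 4.0.16 (TMM scaling, quasi-likelihood, 1 mean per group, all 12 libraries) in R 4.3.3, after a filter that kept genes reaching 0.5 TPM in 3 or more libraries, with Benjamini-Hochberg adjustment over 16127 genes. The fit was tested on simulated data: of 88 genes changed 3-fold and 112 changed 4-fold in Q111-T against Q7-T, 54 and 93 were recovered there, and 21 and 65 in the interaction. Alternatives were DESeq2 1.42.0, limma 3.58.1 on log2(TPM + 0.1, 0.5 or 1), other scalings and filters, counts divided by 4, the 2 groups compared alone, a replicate block and each library left out. Chosen after seeing the data, 2 were added: offsets by 20 bins of transcript length, and 3 libraries left out together. All 10 genes are named whatever their values, with the 3 genes most like each tested one, and called genes of the lists. The genes and lists were chosen with earlier results of these data known.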

Additional observations from a re-analysis of the deposited data

Results flagged for a closer look

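The responses of the 2 lines to IFNγ/LPS differed for 3 genes of the family by the interaction test of edgeR over all 16127 genes tested, of which 4.71% were called. They were 1 of the 9 tested genes described above (Gsta4) and 2 of the 13 others. The difference (response of the Q111 line minus that of the Q7 line) was 1.99 on the log2 scale for Gsta4 (edgeR adjusted p = 0.0357), 3.39 for Gsta1 (edgeR adjusted p = 0.000702) and 1.12 for Ptges (edgeR adjusted p = 0.0197). For Gsta4 and Gsta1 the 3 Q111-T libraries were all above the 3 Q111-C libraries, while the Q7-T and Q7-C libraries overlapped. For Ptges both lines rose, without overlap of the treated and untreated libraries. Without the 3 libraries in which short genes lie high, the differences were 2.31, 3.38 and 1.18 (edgeR adjusted p = 4.94e-05, 5.75e-05 and 0.00511). The call of Gsta4 was lost in 9 of the 12 fits that left out 1 library, with an edgeR adjusted p of at most 0.0995.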

How the results depend on the processing

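The calls of Mgst1 in all 4 comparisons, of Gstt3 between the lines, and of Gsta4 in Q111-C against Q7-C and in the treated Q111 line held under all 26 alternatives. The calls of Gstm2, of Gstt1, of Gsta4 between the treated lines, and of the interaction of Gsta4 were each lost under some of them. The number of genes called in Q111-T against Q7-T fell from 4 to 2 under limma on log2(TPM + 0.5), on log2(TPM + 1) and on quantile-normalised values, with only the 2 groups compared, and without the 3 libraries. With 1 library left out at a time it ranged from 2 to 4, the count in Q111-C against Q7-C from 3 to 5, that in the Q111 line from 2 to 3, and the interaction count from 0 to 1. The causes were not tested. Pairing by replicate number was not seen: of 18 same-numbered pairs 6 had r over 0.1 (range -0.416 to 0.303). Of the 12 libraries, 1 was closest to its own number. The labels do not say whether same-numbered cultures were made together, and these correlations cannot exclude it. With a replicate block, 4, 4, 1, 2 and 1 genes were called, Gstt1 in the Q111 line was lost, and no other call changed. Gstt1 rests on 29 to 166 counts in a library, and Gstm4, with at most 27, was not tested.

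Reversals concerned small, uncalled differences. Gstp1 in Q111-C against Q7-C had 0.17 under limma at all 3 pseudocounts, 0.14 with quantile normalisation, 0.022 with length offsets and 0.20 without the 3 libraries. In Q111-T against Q7-T Gstp1 had 0.10, 0.20, 0.079 and 0.011 in that order, and in the Q7 line -0.043, -0.14 and -0.023 under the first 3 settings. In the Q111 line Gstp1 had -0.0041 with DESeq2 and with median-of-ratios scaling, -0.070 with upper-quartile scaling, -0.011 with no filter, -0.015 at a minimum of 1 TPM, -0.11 under limma, -0.084 with quantile normalisation, -0.016 with the replicate block and -0.13 without the 3 libraries. Its interaction was 0.057 with quantile normalisation and 0.056 with length offsets. Gstm5 in Q111-T against Q7-T had 0.41, 0.40 and 0.40 under limma with pseudocounts 0.1, 0.5 and 1, 0.23 with quantile normalisation, 0.36 with length offsets and 0.38 without the 3 libraries, and in the Q7 line -0.12 without them. Gstm2 in the Q111 line had -0.025 with upper-quartile scaling, -0.061, -0.060 and -0.059 under limma with pseudocounts 0.1, 0.5 and 1, -0.045 with quantile normalisation and -0.091 without the 3 libraries. The interaction of Gstm1 was 0.061 with length offsets, and that of Mgst1 was 0.037 and 0.13 under limma with pseudocounts 0.5 and 1, 0.075 with quantile normalisation and 0.077 with length offsets.

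With 1 library left out at a time, Gstp1 ranged from -0.42 to 0.20 in Q111-C against Q7-C, from -0.66 to 0.13 in Q111-T against Q7-T, from -0.36 to 0.64 in the Q7 line, from -0.17 to 0.062 in the Q111 line and from -0.63 to 0.36 in the interaction. Gstm5 ranged from -0.51 to 0.55 in Q111-T against Q7-T, from -0.36 to 0.69 in the Q7 line and from -0.89 to 0.15 in the interaction. Gstm2 ranged from -0.66 to 0.31 in the Q7 line, from -0.13 to 0.16 in the Q111 line and from -0.26 to 0.71 in the interaction. In the Q7 line Gsta4 ranged from -0.62 to 0.26, Gstt3 from -0.011 to 0.56 and Gsto1 from -0.43 to 0.17. Gsto1 ranged from -0.0086 to 0.42 in the Q111 line, Gstt1 from -0.12 to 0.52 in Q111-C against Q7-C, and the interactions of Gstt3 from -0.0051 to 0.56 and of Gstm1 from -0.43 to 0.28.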
